A study of Mus musculus with 12 samples.

Results

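Skin RNA was compared between mice with an exon 2 mutant of Foxp3 and wild-type mice at a skin site that was not irradiated. The libraries were chosen by their labels as those with the treatment Untreated, 3 of the genotype Foxp3-E2 and 3 of Foxp3-WT, which makes 6 of the 12 libraries of the series. The other 6 come from a site of the same 2 genotypes exposed to ultraviolet B light (UVB) and are used here only beside the untreated values. The mutant is written Foxp3-E2 in the sample labels, Foxp3-DE2 in the protocol and Foxp3dExon2 in the series title, was taken as 1 genotype, and is called DE2 below; wild type is called WT. Per the labels' protocols, mice of both genotypes received 6 UVB doses on a shaved patch of the back flank, and the untreated RNA is from a control site of irradiated mice, so neither genotype has mice that were never irradiated. The dose is 200 mJ/cm2 in the sample labels and 100 mJ/cm2 in the protocol. The sources used here do not give the age, sex or strain of the mice, nor whether the control site was shaved. Animals are not named in the labels, so p-values measure only how libraries of 1 group vary, and an untreated and an irradiated library may come from 1 animal.

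Foxp3 is the X-linked gene of the transcription factor that establishes and maintains regulatory T cells, which restrain other immune cells in skin and elsewhere. Human cells make a Foxp3 form without exon 2 by alternative splicing. Mouse skin holds an epidermis of keratinocytes, hair follicles that pass through growth, regression and rest, a dermis, a fat layer and, beneath these, a thin sheet of skeletal muscle, the panniculus carnosus. In a growing follicle, dividing matrix cells around the dermal papilla turn into the hair shaft and its inner root sheath, and pigment cells in the bulb pass melanin to the shaft. In a bulk library, fewer cells of a type and less RNA per cell cannot be told apart.

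Untreated WT libraries held 3852586 to 4392982 counts and untreated DE2 libraries 4205055 to 4741726. Keratinocyte RNA was present in all 6, with Krt14 at 2415, 1777 and 2718 CPM (counts scaled to equal library size, with TMM factors) in WT and 5268, 3950.4 and 2886 in DE2. Genes of the Y chromosome were counted in every library of the series (Ddx3y, 158 to 415 counts), and Xist, the RNA of the silenced X chromosome, at 0 to 18 counts. DE2 untreated replicate 1 stood apart from the other DE2 libraries on gene groups described below: genes of fast skeletal muscle made up 10.2, 16.7 and 18.6 percent of counts in the 3 DE2 libraries, against 5.92, 5.14 and 6.36 percent in WT. Genes of interferon gamma response made up 0.803, 0.361 and 0.376 percent in the same DE2 libraries. In the irradiated groups, WT replicate 2 had the highest muscle share, and the 3 irradiated WT libraries held 4.8, 9.8 and 2.41 percent.

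Foxp3 itself (ENSMUSG00000039521, at 7573644 to 7595245 on the plus strand of chromosome X in GRCm38) was not counted in any of the 6 untreated libraries (0 counts). For 0 counts the upper limit is 0.219 CPM over the WT and 0.267 CPM over the DE2 libraries, counting error only. The genotype therefore cannot be checked from Foxp3 expression, and a count per gene would not show which exons were read. At the irradiated site Foxp3 had 0 counts in each WT library and 1, 7 and 0 in the DE2 libraries. Of the 4577 exon bases of Foxp3 in the annotation, 31.5% also belong to exons of other genes. The handling of reads in shared exons is not stated, and Ccdc22, a broadly expressed neighbour with 92.6% of its exon bases shared, had 0 counts in all 12 libraries. Flicr, a noncoding RNA read from the start of the Foxp3 locus, had 3, 8 and 3 counts in untreated WT libraries and 0 in each untreated DE2 library, and was below the filter on low counts. Of 15 other genes within 100 kb of Foxp3, 4 were tested and 2 passed. Magix (chromosome X, 7673164 to 7681251) had 16, 21 and 44 counts in WT and 110, 132 and 108 in DE2 (log2 fold change 2.41 ± 0.48 (SE), adjusted p = 0.0027). Gm14703, annotated as antisense, had 7, 17 and 12 counts in WT and 0, 0 and 1 in DE2, a ratio of 0.0338 with an exact 95% interval of 0.000834 to 0.201. In irradiated skin Gm14703 had 10, 11 and 9 counts in WT and 1, 2 and 2 in DE2. Magix had 15, 53 and 18 counts in irradiated WT and 24, 31 and 17 in irradiated DE2. Prickle3 and Plp2, which lie between or beside these genes, did not pass (-0.07 ± 0.22 and -0.15 ± 0.19).

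Across all genes, edgeR's quasi-likelihood test called 3477 of 15126 genes at a Benjamini-Hochberg adjusted p under 0.05, which is 23.0% of those tested. Of these, 1782 were higher in DE2 (11.8% of genes tested) and 1695 were lower (11.2%). The median log2 fold change over all genes was 0.03. All 3 DE2 libraries lay above all 3 WT libraries for 19.4% of genes and below them for 20.4%. At the irradiated site the same model called 448 genes between the genotypes, 2.96% of those tested, with 2.35% higher and 0.608% lower in DE2. The test of whether the genotype difference itself differed between sites called 1585 genes (10.5%), of which 4.84% had a more positive and 5.64% a more negative difference at the untreated site. That count ranged from 878 to 2585 over fits that each left out 1 of the 12 libraries. Without WT untreated replicate 2, 2108 genes were called at the untreated site. The higher calls numbered 899, 810, 1005 and 1158 without WT replicate 1, 2 or 3 or DE2 replicate 3. With the log2 share of counts in fast muscle genes as a covariate, 572 genes were called, 70 higher and 502 lower. That share was 5.14 to 6.36 percent in untreated WT and 10.2 to 18.6 percent in untreated DE2 libraries. Because the genotypes do not overlap in it, calls lost in this fit cannot be assigned to muscle share or to genotype. Scaling to total counts without a composition factor moved the median of all genes to -0.37 and the split to 788 higher and 3011 lower. Under that scaling 38 oxidative phosphorylation, 5 fat cell, 5 interferon gamma, 3 type I interferon genes and 1 gene of the mitochondrial genome were called higher, fewer than in the lists described below.

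**Figure D1:**
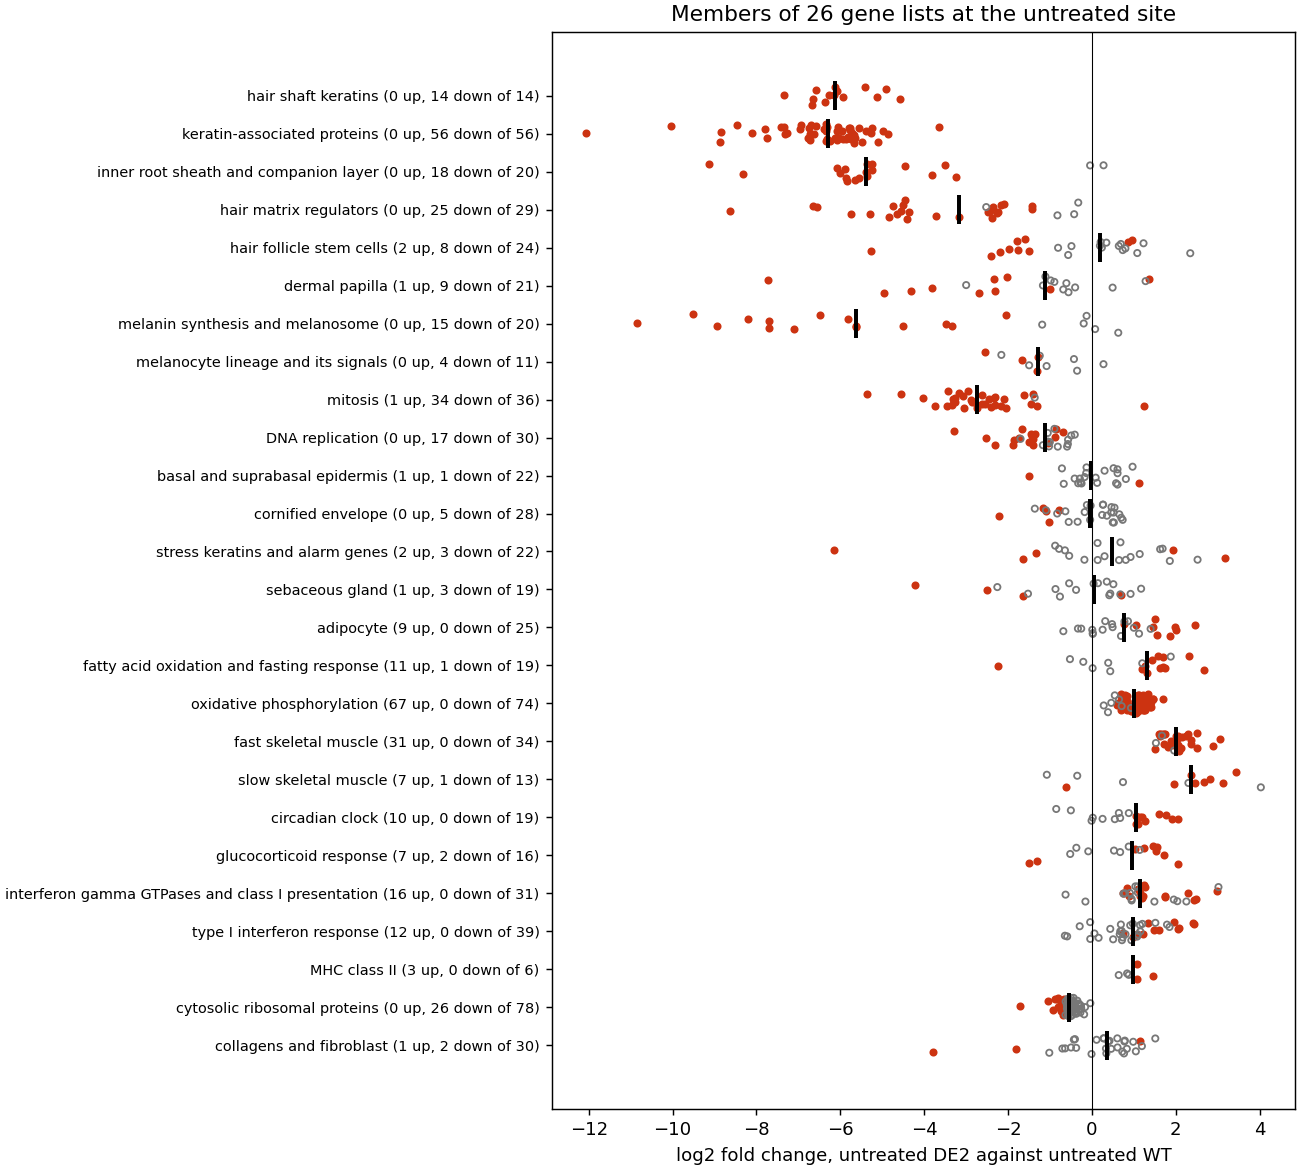
Log2 fold change of untreated DE2 against untreated WT (x axis) for the tested members of 26 gene lists (rows). Each point is 1 gene, filled where the edgeR adjusted p is under 0.05 and open where it is not, and the black bar is the list's median; the row labels give the number of members higher and lower among those tested. Hair shaft and pigment lists lie far to the left of the line at 0, and muscle, respiratory and clock lists to its right.

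Genes of the hair shaft fell furthest, and their 2 lists had the lowest medians of all lists. The keratins of the shaft, which form its intermediate filaments, were lower in untreated DE2 skin in 14 of 14 tested members, with a median log2 fold change of -6.13. They lie in 2 clusters, 9 on chromosome 11 (99514114 to 100105626) and 5 on chromosome 15 (101459061 to 101550667). Krt33a, a cortex keratin, was measured at 1468, 2303 and 2214 CPM in the WT libraries and at 42.4, 15 and 14.7 CPM in the DE2 libraries. The groups are far apart, and DE2 replicate 1 was the highest of its group (log2 fold change -6.37 ± 0.50 (SE), adjusted p = 7e-07). Krt83 stood at 1511, 2385 and 1883 CPM in WT and at 39.5, 22.9 and 19.2 CPM in DE2 (log2 fold change -6.14 ± 0.45 (SE), adjusted p = 5.2e-07). Krt35, a keratin of the early cortex and cuticle, stood at 1325, 1838 and 1762 and at 40.5, 6.22 and 33.6 CPM (log2 fold change -5.93 ± 0.56 (SE), adjusted p = 5e-06). Krt40 was counted in DE2 replicate 1 only, at 1.22, 0 and 0 CPM, against 45.1, 48.7 and 136 CPM in WT. The smallest difference of the list was that of Krt84 (-4.58 ± 0.60). Together the shaft keratins made up 0.876, 1.31 and 1.18 percent of counts in WT and 0.0207, 0.00630 and 0.00911 percent in DE2.

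Keratin-associated proteins, the cysteine- or glycine-rich proteins that cross-link these filaments, were lower in 56 of 56 tested genes (median -6.28), and in 55 of them every DE2 library lay below every WT library. With genes at 0 counts set at the bound that 3 counts give, the median was -6.08. Krtap19-4 fell from 261, 226 and 281 CPM to 0.244, 2.26 and 0.278 CPM (log2 fold change -8.11 ± 0.73 (SE), adjusted p = 5.2e-06). Krtap13-1 fell from 158, 244 and 307 to 0.244, 0.566 and 2.5 CPM (log2 fold change -7.74 ± 0.54 (SE), adjusted p = 5.2e-07). Krtap11-1 and Krtap16-3 stood at 571, 1106 and 769 and 579.7, 760.2 and 716 CPM in WT and under 15 CPM in each DE2 library (log2 fold changes -6.77 ± 0.53 and -6.95 ± 0.55). Members of this family are near-identical copies in part, so the division of reads among them is uncertain. The family took 1.49, 2.27 and 2.0 percent of counts in WT and 0.0403, 0.0131 and 0.0141 percent in DE2.

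The inner root sheath and companion layer, which mould the growing shaft, were lower in 18 of 20 tested genes (median -5.38). Krt71, a sheath keratin, stood at 2677, 5429 and 5294 CPM in WT and at 279, 36.8 and 34.5 CPM in DE2 (log2 fold change -5.25 ± 0.74 (SE), adjusted p = 0.00025). Tchh, the trichohyalin that hardens sheath and medulla, stood at 1674, 3731 and 2475 and at 116, 28.3 and 46.4 CPM (log2 fold change -5.37 ± 0.51 (SE), adjusted p = 4.6e-06). In both genes DE2 replicate 1 was the highest of its group and still lay far below WT. Krt74 had 249 counts in WT and 0 in DE2, at least 68.2-fold lower from a floor of 3 counts over the group. Krt75, the companion layer keratin, kept more of its level, at 257, 490.0 and 389.8 CPM in WT and 46.8, 26 and 27.5 in DE2 (log2 fold change -3.50 ± 0.30 (SE), adjusted p = 1.7e-06). Ctsl, a lysosomal protease with wider expression, and Gata3, a sheath regulator that epidermis also makes, did not pass (0.28 ± 0.23 and -0.04 ± 0.22).

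**Figure D2:**
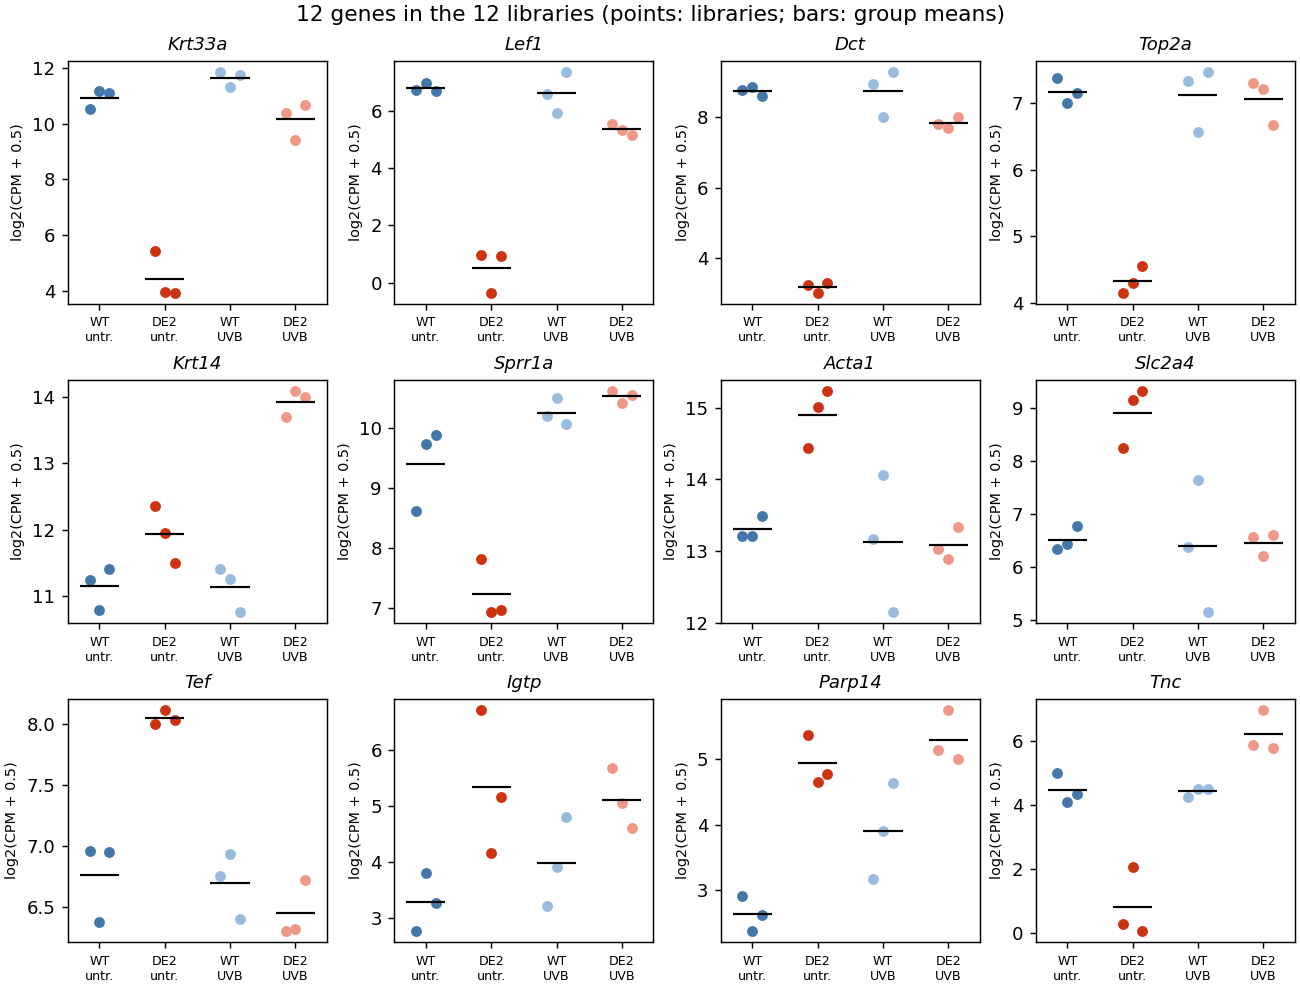
Level of 12 genes in the 12 libraries as log2(CPM + 0.5) on the y axis, with untreated WT, untreated DE2, irradiated WT and irradiated DE2 from left to right; each point is 1 library and each bar the group mean. For Krt33a, Lef1, Dct and Top2a the 3 untreated DE2 libraries lie below the other 9, and for Acta1 and Tef they lie above the other 9.

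Regulators of the hair matrix were lower in 25 of 29 tested genes (median -3.17). Lef1, the transcription factor that carries Wnt signals in precortex cells, stood at 104, 123 and 102 CPM in WT and at 1.46, 0.283 and 1.39 CPM in DE2, with no overlap (log2 fold change -6.64 ± 0.46 (SE), adjusted p = 5.2e-07). Hoxc13, which switches on shaft keratin genes, stood at 74.9, 101 and 70.7 and at 3.66, 2.26 and 2.5 CPM (log2 fold change -4.84 ± 0.37 (SE), adjusted p = 6.2e-07). Dlx3 and Msx2, homeobox factors of the matrix, fell as well (-4.42 ± 0.31 and -4.37 ± 0.45). Foxn1, whose loss gives nude mice, fell less (89.7, 113 and 113 CPM in WT, 26.6, 20.9 and 10.6 in DE2, log2 fold change -2.44 ± 0.29 (SE), adjusted p = 4e-05). In the Hedgehog pathway, the ligand Shh had 41 counts in WT and 0 in DE2 (at least 11.2-fold lower), and the target Hhip had 174 and 0 (at least 47.6-fold lower). The receptor Ptch1 and the target Gli1 fell too (-2.24 ± 0.31 and -2.36 ± 0.48). Among Wnt genes, Wnt5a and Wnt11 fell (-2.09 ± 0.28 and -2.27 ± 0.38), Wnt10a and Wnt10b did not pass (-0.33 ± 0.39 and -2.52 ± 0.94), and the general Wnt target Axin2 did not pass either (-0.42 ± 0.49). The letters CTTTGA, the core bound by Lef1 and its relatives, were searched on both strands of the RefSeq promoter windows described below. They were in 5 of 9 shaft keratin genes with a window (55.6%) and 15 of 50 Krtap genes (30%). The shares were 22.2% of sheath genes (4 of 18), 21.1% of the regulators (4 of 19) and 14.8% of tested genes. Among all genes called lower the letters were in 14.3% and among those called higher in 14.2%. They share letters with the cell cycle element TTTGAA searched below.

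Of 24 tested genes linked to follicle stem cells, 2 were higher and 8 lower, and the median was 0.20, which turned to -0.24 with total count scaling. Krt15, the bulge keratin, stood at 1310.5, 766 and 815 CPM in WT and 2384, 1352 and 1289 in DE2 and did not pass (log2 fold change 0.80 ± 0.33 (SE), adjusted p = 0.092). Cd34, the other classical bulge marker of mice, did not pass (0.64 ± 0.29). Col17a1, the collagen that anchors these cells, rose from 407, 239.7 and 329 to 916, 568 and 422 CPM (log2 fold change 0.97 ± 0.27 (SE), adjusted p = 0.018). Lgr5, Sox9 and Lhx2, which mark or maintain the lower bulge and germ, fell (-1.97 ± 0.57, -1.76 ± 0.30 and -1.80 ± 0.42). Wif1, a secreted Wnt inhibitor, fell most in this list (92.1, 70.1 and 104 CPM in WT, 3.9, 2.55 and 0.278 in DE2, log2 fold change -5.26 ± 0.53 (SE), adjusted p = 8e-06). Of 21 tested genes of the dermal papilla, 1 was higher and 9 lower (median -1.11). Rspo2, a Wnt amplifier of the papilla, had 93 counts in WT and 0 in DE2 (at least 25.5-fold lower). Corin, a papilla protease, fell from 7.84, 15.6 and 4.59 to 0.244, 0.283 and 0.278 CPM. The exception was Tgfb2, a growth factor linked to follicle regression and regrowth (10.2, 15.1 and 7.5 CPM in WT, 24.6, 28.3 and 31.7 in DE2, log2 fold change 1.36 ± 0.41 (SE), adjusted p = 0.027).

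Pigment genes fell with the shaft. Of 20 tested genes of melanin synthesis and melanosomes, 15 were lower and 0 higher (median -5.62, or -4.65 with genes at 0 counts set at their bound). Tyr, the rate-limiting enzyme of melanin synthesis, had 815 counts over the WT libraries (51.8, 61.7 and 65 CPM) and 0 in every DE2 library, at least 223-fold lower. Dct, an enzyme of eumelanin synthesis, stood at 438, 459.9 and 386 CPM in WT and at 9.02, 7.64 and 9.45 CPM in DE2 (log2 fold change -5.61 ± 0.31 (SE), adjusted p = 1.4e-07). Mlana and Pmel, proteins of the melanosome, stood at 129, 143 and 109 and 298, 343 and 293 CPM in WT and at 1.46, 0.849 and 0.278 and 5.85, 3.68 and 0.556 CPM in DE2 (-7.11 ± 0.43 and -6.49 ± 0.49). Oca2 and Slc24a5, melanosome transporters, had 0 counts in DE2 (at least 89-fold and 60.8-fold lower). The 5 members that did not pass, Cd63, Rab38, Rab27a, Tpcn2 and Syngr1, are also made by other cells. Of 11 tested genes of the melanocyte lineage and its signals, not all of them particular to melanocytes, 4 were lower and 0 higher. The 4 were Kit, Kitl, Tfap2a and Tfap2b, and 2 were called lower without DE2 replicate 2. Mitf, the lineage's master regulator, did not pass (18.9, 31 and 20.2 CPM in WT, 27.5, 9.34 and 17.8 in DE2, log2 fold change -0.35 ± 0.37 (SE), adjusted p = 0.54), and neither did Sox10 (-1.50 ± 0.59). Kit, the receptor that melanocytes and mast cells need, fell from 37.9, 37 and 39.6 to 9.51, 3.4 and 6.39 CPM (log2 fold change -2.55 ± 0.45 (SE), adjusted p = 0.0012).

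The M-box CATGTG, a core site for Mitf family factors, was searched on both strands in the RefSeq promoter windows (GRCm38.p6, 250 bases before to 50 after a gene's start). It was found in 7 of the 15 pigment genes with a window (46.7%) and in 10.9% of the 11046 tested genes with one. Among all genes called lower it was in 11.9% and among those called higher in 12%. The 150 bases before the Dct start (chr14:118052247-118052396, minus strand) are shown because Dct had the smallest p of the pigment list; the match is in capitals. A match is a description, not a bound site.
Dct: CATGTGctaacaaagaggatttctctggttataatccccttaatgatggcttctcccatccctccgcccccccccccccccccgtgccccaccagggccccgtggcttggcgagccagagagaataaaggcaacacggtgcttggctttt

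Cell division genes made a further group of lower genes. Of 36 tested genes of mitosis, 34 were lower and 1 was higher (median -2.74). Top2a, which untangles chromosomes, stood at 165, 127 and 141 CPM in WT and at 17.3, 19.2 and 23.1 CPM in DE2 (log2 fold change -2.86 ± 0.27 (SE), adjusted p = 3.6e-06). Ube2c, a ubiquitin carrier of mitotic exit, stood at 129.7, 118 and 115 and at 14.1, 14.4 and 18.3 CPM (log2 fold change -2.95 ± 0.25 (SE), adjusted p = 1.5e-06). Neither gene's groups overlap, and in neither does DE2 replicate 1 stand out. Ccnb2 and Cdk1, the cyclin and kinase of mitotic entry, fell too (log2 fold changes -3.33 ± 0.33 and -3.26 ± 0.38). Aurkb, the kinase of the chromosomal passenger complex, fell furthest (64, 51.5 and 53.2 CPM in WT, 0.975, 0 and 3.06 in DE2, log2 fold change -5.36 ± 0.61 (SE), adjusted p = 2.3e-05). Ttk did not pass (-1.37 ± 0.47, adjusted p = 0.05003). Pttg1, securin, went the other way (67.3, 57.1 and 67.1 CPM in WT, 112, 161 and 183 in DE2, log2 fold change 1.25 ± 0.32 (SE), adjusted p = 0.012). DNA replication genes were lower in 17 of 30, with a smaller median of -1.11. Rrm2, which makes deoxynucleotides in S phase, fell most clearly (102, 95.1 and 89 CPM in WT, 16.8, 23.5 and 17.2 in DE2, log2 fold change -2.32 ± 0.26 (SE), adjusted p = 2.2e-05). Pcna, the replication clamp, fell less (log2 fold change -0.85 ± 0.21 (SE), adjusted p = 0.01). At the irradiated site 0 genes of either list passed, and the difference between sites passed for 27 mitosis and 6 replication genes. With the muscle share as covariate, 16 mitosis and 2 replication genes were called lower.

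The CHR element TTTGAA, through which the DREAM complex and its partners act on late cell cycle genes, was found in the whole promoter window of 21 of the 30 mitosis genes with a window (70%), of 12% of replication genes and of 14.9% of tested genes. Among all genes called lower it was in 19.1% and among those called higher in 13.4%. In the 250 bases before the start alone, 30% of mitosis genes held it. The 150 bases before the start are shown for Ube2c (chr2:164769779-164769928, plus strand) and Top2a (chr11:99024190-99024339, minus strand), both of which hold the element close to the start; capitals mark it, read here on the other strand as TTCAAA.
Ube2c: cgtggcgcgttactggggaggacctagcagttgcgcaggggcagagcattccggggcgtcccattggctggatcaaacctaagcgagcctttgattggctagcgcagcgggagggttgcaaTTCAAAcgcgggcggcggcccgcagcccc
Top2a: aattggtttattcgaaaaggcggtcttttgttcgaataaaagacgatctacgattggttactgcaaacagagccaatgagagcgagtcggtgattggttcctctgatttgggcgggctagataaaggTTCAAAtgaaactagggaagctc

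Beside the 23.0% of all tested genes that were called, none of the epidermal, alarm and sebaceous lists given here had a larger share of called members. Of 22 tested genes of basal and suprabasal keratinocytes, 1 was higher and 1 lower (median -0.02). Krt5 and Krt14, the basal keratins, gave log2 fold changes of 0.52 ± 0.27 and 0.81 ± 0.30 and did not pass, and neither did Krt1 or Krt10, the keratins of the next layers (0.61 ± 0.37 and 0.61 ± 0.31). Col7a1, the anchoring fibril collagen, rose (64, 43.8 and 49.2 CPM in WT, 141, 118 and 83.1 in DE2, log2 fold change 1.12 ± 0.32 (SE), adjusted p = 0.019). Sfn, an epithelial 14-3-3 protein, fell (682, 1159 and 904 and 466, 302 and 208 CPM, log2 fold change -1.49 ± 0.29 (SE), adjusted p = 0.0021). Of 28 tested genes of the cornified envelope, 5 were lower and 0 higher: Sprr1a, Ivl, Tgm1, Casp14 and Cnfn. Without WT replicate 3 or DE2 replicate 3, 3 were called. Sprr1a, an envelope precursor, had the largest difference of the 5 (389, 845 and 940.3 CPM in WT, 224, 122 and 124 in DE2, log2 fold change -2.21 ± 0.33 (SE), adjusted p = 0.00028). Filaggrin and loricrin did not pass (-0.63 ± 0.27 for Flg, 0.54 ± 0.30 for Lor). Among 22 stress keratins and alarm genes 2 were higher (Il1b and Il33), 3 were lower (S100a7a, Krt17 and Areg) and 17 did not pass. S100a7a, an antimicrobial protein of the psoriasin family, had the smallest p (21.8, 94.8 and 77.7 CPM in WT, 2.19, 0 and 0.278 in DE2, log2 fold change -6.15 ± 0.68 (SE), adjusted p = 2.9e-05). Il1b, an inflammatory cytokine, stood at 0.218, 0 and 1.67 and at 5.85, 12.4 and 0.278 CPM, with DE2 replicate 3 inside the WT range (log2 fold change 3.18 ± 1.05 (SE), adjusted p = 0.044). Krt17, which the follicle also makes, fell (1056, 1642 and 1423 CPM in WT, 616, 517 and 508 in DE2, log2 fold change -1.33 ± 0.23 (SE), adjusted p = 0.0009), while Krt6a and Krt16 did not pass (-0.64 ± 0.43 and 0.30 ± 0.61). Il33, an alarm cytokine of keratinocytes, rose from 10.4, 5.83 and 17.9 to 52.4, 45.6 and 33.3 CPM, with no overlap (log2 fold change 1.93 ± 0.36 (SE), adjusted p = 0.0018). In the sebaceous gland list 1 gene was higher and 3 lower of 19; Elovl3, a fatty acid elongase, fell from 62.9, 67.8 and 172 to 7.31, 6.79 and 1.95 CPM (log2 fold change -4.22 ± 0.46 (SE), adjusted p = 1.7e-05), while Scd1 did not pass (0.92 ± 0.37).

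Of 34 tested genes of fast muscle, 31 were higher and 0 lower (median 2.01), and in 30 every DE2 library lay above every WT library. Acta1, skeletal actin, stood at 9516, 9503 and 11557 CPM in WT and at 22255, 33170.0 and 38502 CPM in DE2 (log2 fold change 1.62 ± 0.41 (SE), adjusted p = 0.012). Ttn, the giant spring of the sarcomere, stood at 3982, 2749 and 3039 and at 7669.8, 17246 and 16306 CPM (log2 fold change 2.08 ± 0.49 (SE), adjusted p = 0.0069). DE2 replicate 1 was the lowest of its group in both. Myosin heavy chains differed among themselves: Myh2, of type IIa fibres, and Myh1, of type IIx, rose by 3.06 ± 0.45 and 2.89 ± 0.52, while Myh4, of type IIb, stood at 1817, 11328 and 16436 CPM in DE2 against 2906, 2736 and 3664 in WT, overlapped and did not pass (log2 fold change 1.67 ± 0.70 (SE), adjusted p = 0.1). Actn3 and Pvalb, also of fast fibres, did not pass either (1.96 ± 0.80 and 1.53 ± 0.61). In all 3 of these genes DE2 replicate 1 lay below the highest WT library and the other DE2 libraries above all WT libraries. Of 13 slow muscle genes 7 were higher and 1 lower. Ankrd2, a stretch-responsive muscle protein, rose from 62, 28.2 and 63 to 315, 1013 and 326 CPM (log2 fold change 3.43 ± 0.56 (SE), adjusted p = 0.00087), and Myoz2, a Z-disc protein of slow fibres, from 18.1, 20.7 and 18.8 to 170.1, 201 and 135 CPM (log2 fold change 3.14 ± 0.38 (SE), adjusted p = 4.4e-05). The lower gene was Atp2a2, the calcium pump of slow muscle that most other cells also make (-0.62 ± 0.17). Among genes of muscle growth and wasting, the ubiquitin ligases Trim63 and Fbxo32 rose (2.29 ± 0.49 and 2.06 ± 0.37), and the metallothioneins Mt1 and Mt2 fell (-1.32 ± 0.33 and -1.50 ± 0.42). Without WT untreated replicate 1 or 2, 18 or 15 fast muscle genes were called.

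**Figure D3:**
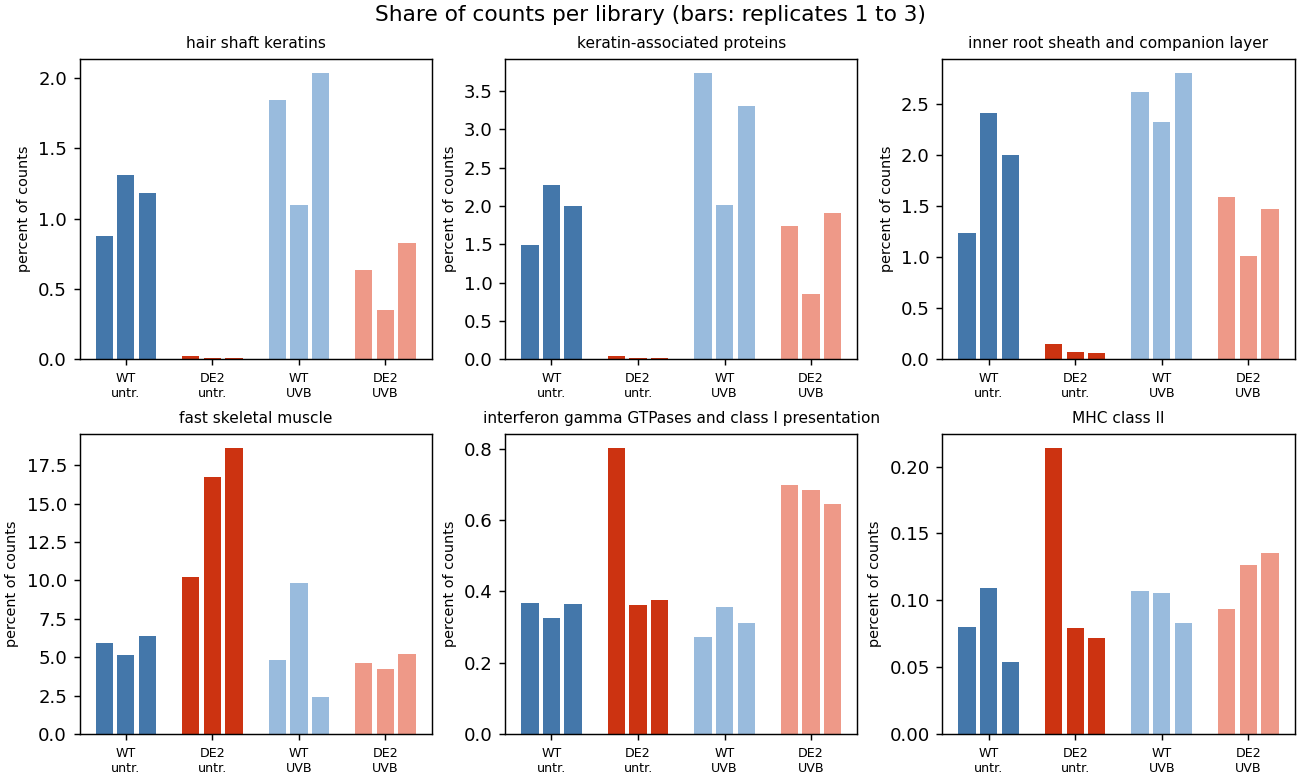
Share of all counts, in percent (y axes differ and start at 0), in 6 gene lists for each of the 12 libraries, grouped as untreated WT, untreated DE2, irradiated WT and irradiated DE2; bars are single libraries in replicate order. Hair and sheath shares are near 0 in the 3 untreated DE2 libraries, whose muscle shares are the 3 highest of the series, and the interferon gamma share is highest at the untreated site in DE2 replicate 1.

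Nuclear genes of oxidative phosphorylation were higher in 67 of 74 tested and lower in 0 (median 1.0). Members were also grouped by complex from their symbols. Not every member falls in a group, and the list need not hold every subunit of a complex. Among the tested members, 35 of 38 of complex I, 4 of 4 of complex II and 8 of 8 of complex III rose, as did 6 of 6 of complex IV and 13 of 17 of ATP synthase. At the irradiated site 0 of these passed, and without WT untreated replicate 3, 42 of the 74 were called. Of 12 tested genes of the mitochondrial genome 7 were higher and 0 lower; without WT replicate 1, 2 or 3 the count was 4, 0 or 1, and without DE2 replicate 2 or 3 it was 4. Its subunit gene mt-Co1 stood at 4639.6, 3819.8 and 4399.8 CPM in WT and 5799.6, 9398 and 10411 in DE2 (log2 fold change 0.99 ± 0.29 (SE), adjusted p = 0.022), whereas the ribosomal RNA mt-Rnr2 did not pass (0.53 ± 0.27). Fatty acid oxidation genes were higher in 11 of 19 and lower in 1. Acadvl, the first enzyme on very long chains, rose from 60.3, 88.3 and 84.8 to 152, 266 and 278 CPM (log2 fold change 1.58 ± 0.27 (SE), adjusted p = 0.0011), and Ppargc1a, a coactivator that drives mitochondrial genes, from 11.1, 5.59 and 5.0 to 38.3, 61.4 and 40 CPM (log2 fold change 2.68 ± 0.77 (SE), adjusted p = 0.022). Pdk4, a fasting-induced kinase, did not pass (1.88 ± 0.76, adjusted p = 0.093). Acot1, a cytosolic thioesterase, fell (-2.25 ± 0.41).

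Of 25 tested fat cell genes, 9 were higher and 0 lower (5 or 4 without WT replicate 1 or 2). The 9 were Cd36, Lpl, Pnpla2, Car3, Dgat2, Slc2a4, Aqp7, Gpd1 and Acsl1. Slc2a4, the insulin-responsive glucose transporter of fat and muscle, rose from 81, 86.7 and 109 to 303, 573 and 640.4 CPM (log2 fold change 2.45 ± 0.47 (SE), adjusted p = 0.0027). Adipoq, Fabp4 and Plin1, made by fat cells, did not pass (0.49 ± 0.55, 0.01 ± 0.30 and 1.12 ± 0.49), and Adipoq was highest in DE2 replicate 3 (119, 39.3 and 377 CPM in DE2, 139.5, 75 and 166 in WT). With the muscle share as covariate, called members fell to 3 in the oxidative phosphorylation list, 1 in the fat cell list, 1 in the fatty acid oxidation list and 0 of the mitochondrial genome. The 34 fast muscle genes, of which the covariate was made, gave 0 calls in that fit. The muscle share did not overlap between the untreated genotypes, so that fit cannot part it from genotype. Whether the muscle share of the libraries set these rises was not tested.

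Of 19 tested clock genes, 10 were higher and 0 lower (median 1.05), and 6 were called without WT untreated replicate 2. The nuclear receptors Nr1d1 and Nr1d2, which repress Arntl, stood at 69.4, 59.2 and 96.9 and 57.7, 65.5 and 57.7 CPM in WT and at 219.6, 291 and 336 and 133, 128 and 116 CPM in DE2 (1.91 ± 0.34 and 1.05 ± 0.27). Dbp, an output transcription factor of the clock, stood at 30, 26.8 and 30.4 and at 59, 97.3 and 109 CPM (log2 fold change 1.60 ± 0.28 (SE), adjusted p = 0.001). Tef, its relative, stood at 124, 82.5 and 123 and at 255, 276 and 261 CPM (log2 fold change 1.26 ± 0.21 (SE), adjusted p = 0.00071). In these 4 genes no DE2 library overlapped WT. Per3 and Cry2 of the repressor limb rose (1.05 ± 0.25 and 1.15 ± 0.28), while Per1, Per2 and Cry1 did not pass (0.67 ± 0.30, -0.50 ± 0.77 and 0.25 ± 0.36). Of the activator limb, Arntl and Clock did not pass (0.64 ± 0.53 and 0.54 ± 0.24). The labels do not give the time of day of sampling. With the muscle share as covariate, 0 clock genes were called. Of 16 genes that glucocorticoids are known to induce, 7 were higher and 2 lower. The 2 lower ones were the metallothioneins Mt1 and Mt2, given above with the muscle growth genes. The lowest log2 fold change of the list was -1.50. As a mean share of all counts, the list lay at 0.2215 percent in WT and 0.1893 percent in DE2. Outside the skeletal muscle lists, the mean shares were 0.2355 and 0.2248 percent. Tsc22d3, which encodes the glucocorticoid-induced leucine zipper, rose from 190.5, 137 and 163 to 339, 528 and 469.8 CPM (log2 fold change 1.45 ± 0.23 (SE), adjusted p = 0.00058), and Klf9 and Zbtb16 rose too (1.54 ± 0.28 and 2.06 ± 0.41). Fkbp5, a sensitive target, did not pass (log2 fold change 0.88 ± 0.37 (SE), adjusted p = 0.099).

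The E-box CACGTG, the site of the Clock and Arntl pair, was found in 5 of 16 clock genes with a promoter window (31.2%) and in 11.3% of tested genes. Among all genes called higher it was in 9.72% and among those called lower in 11.5%. Tef is shown because it had the smallest p of the clock list; the element is in capitals (chr15:81802523-81802672, plus strand).
Tef: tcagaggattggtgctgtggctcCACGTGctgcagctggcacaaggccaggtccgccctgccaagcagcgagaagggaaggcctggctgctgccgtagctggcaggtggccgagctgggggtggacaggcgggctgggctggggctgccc

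Of 31 tested genes of the interferon gamma GTPases and class I presentation, 16 were higher and 0 lower (median 1.15). As a share of all counts this list lay at 0.803 percent in DE2 replicate 1 and at 0.361 and 0.376 percent in the other DE2 libraries, against 0.367, 0.325 and 0.364 percent in WT. As a share of counts outside the skeletal muscle lists, it lay at 0.900 percent in DE2 replicate 1 and at 0.4375 and 0.464 percent in the others, above the WT libraries at 0.391, 0.3425 and 0.3895 percent. Igtp, a GTPase that guards against intracellular pathogens, stood at 6.31, 13.5 and 9.17 CPM in WT and at 104, 17.3 and 35 CPM in DE2 (log2 fold change 2.43 ± 0.59 (SE), adjusted p = 0.0094). Iigp1, of the same family, stood at 12.8, 1.63 and 7.3 and at 123, 17.8 and 33.1 CPM (log2 fold change 2.99 ± 0.70 (SE), adjusted p = 0.0083). The highest value of each is that of replicate 1, and the other 2 DE2 libraries also lay above WT. Tapbp, which loads peptide onto class I molecules, rose as well (75.8, 66.9 and 108 CPM in WT, 255, 157 and 178 in DE2, log2 fold change 1.23 ± 0.23 (SE), adjusted p = 0.0016), as did H2-K1 and B2m, the class I chains (0.88 ± 0.25 and 0.85 ± 0.25). Without DE2 untreated replicate 1, 3 of the 31 genes were called. Leaving out WT replicate 1, 2 or 3 left 4, 4 or 7 calls, and leaving out DE2 replicate 2 or 3 left 20 or 15. Over all genes, 1996 of 15663 were higher without DE2 replicate 1, against 1782 of 15126 in the main fit. The fits without WT replicate 1, 2 or 3 called 899, 810 or 1005 genes higher in all. Those without DE2 replicate 2 or 3 called 1205 or 1158 higher.

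Genes of type I interferon response were higher in 12 of 39 and lower in 0 (median 0.97). Parp14 had the smallest p of the list (6.97, 4.66 and 5.63 CPM in WT, 41.2, 24.6 and 27 in DE2, log2 fold change 2.42 ± 0.41 (SE), adjusted p = 0.00082). Ifit1, which binds foreign RNA, stood at 1.96, 1.4 and 1.88 and at 14.6, 2.83 and 11.4 CPM (log2 fold change 2.44 ± 0.59 (SE), adjusted p = 0.008). Irf7 and Mx1, classical induced genes, did not pass (0.16 ± 0.36 and -0.65 ± 1.07). Without DE2 replicate 1, 6 of 39 were called, and without WT replicate 1, 2 or 3, 5, 4 or 6. The fit without DE2 replicate 1 called 1996 of all 15663 genes tested higher. MHC class II genes passed in 3 of 6, with H2-Aa at 111, 164 and 86.3 CPM in WT and 425, 159 and 174 in DE2 (log2 fold change 1.07 ± 0.35 (SE), adjusted p = 0.037), and in 0 without DE2 replicate 1. As a share of all counts, the class II list lay at 0.07985, 0.109 and 0.0535 percent in WT. In DE2 it lay at 0.214, 0.07945 and 0.0714 percent, so only replicate 1 was above the WT range. With the muscle share as covariate, 5 interferon gamma and 1 type I genes were called, while the median of the interferon gamma list was 1.30.

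The ISRE, bound by interferon-activated factors and searched on both strands as a pair of GAAA blocks with 2 bases of any kind between them, was found in 15 of 29 type I genes (51.7%) and 13 of 23 interferon gamma genes (56.5%) with a promoter window, against 3.89% of tested genes and 3.34% of all genes called higher. Ifit1 is shown because it was called with a small p and holds the element in the 150 bases before its start. It also passed at both sites, and its 2 matches, in capitals, are read on the other strand (chr19:34640739-34640888, plus strand).
Ifit1: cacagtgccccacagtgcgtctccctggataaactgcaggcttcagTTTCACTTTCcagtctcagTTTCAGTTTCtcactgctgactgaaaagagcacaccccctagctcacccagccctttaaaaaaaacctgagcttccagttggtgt

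The lists of immune cell markers are set beside the 23.0% of all tested genes that were called. Of 15 tested T cell genes 1 passed, Bcl11b, which keratinocytes also make (80.1, 44 and 57.7 CPM in WT, 176, 125 and 91.4 in DE2, log2 fold change 1.11 ± 0.25 (SE), adjusted p = 0.0062). Cd3e and Cd3g, subunits of the receptor complex, stood at 3.48, 1.86 and 1.25 and 6.09, 1.17 and 3.54 CPM in WT and at 7.07, 1.98 and 1.95 and 14.4, 12.2 and 3.89 CPM in DE2, and did not pass. Of 8 genes linked to regulatory T cells 1 passed, Areg, a growth factor that epithelium also makes, and it was lower (5.66, 7.92 and 9.8 CPM in WT, 2.44, 1.42 and 3.61 in DE2, log2 fold change -1.63 ± 0.50 (SE), adjusted p = 0.029). Il2ra and Ctla4 were below the filter. Of 7 cytotoxic and 10 neutrophil genes 0 passed, and of 18 macrophage genes 1 did, Fcgr1, the high-affinity IgG receptor (0.218, 1.17 and 0.834 and 8.77, 2.83 and 6.95 CPM, log2 fold change 3.02 ± 0.67 (SE), adjusted p = 0.005). Of 11 genes of Langerhans and dendritic cells 2 were higher, Mgl2, a lectin, and Cst3, cystatin C (1.24 ± 0.39 and 0.89 ± 0.23), and 1 was lower, the adhesion protein Epcam (-0.68 ± 0.23), which follicle epithelium also makes. Of 7 mast cell genes 1 was lower, Kit, given above with the pigment genes, while the proteases Cpa3 and Mcpt4 did not pass (0.48 ± 0.73 and 0.79 ± 0.53). Of 4 B and plasma cell genes 0 passed. Complement genes were higher in 5 of 17 (C3, Serping1, C1ra, C1s1 and Cd55), and 2 were called without WT replicate 1, WT replicate 3 or DE2 replicate 1. C3, the central component, rose from 84.9, 107 and 61.9 to 236, 129 and 243 CPM (log2 fold change 1.26 ± 0.25 (SE), adjusted p = 0.003).

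Of 30 tested genes of collagens and fibroblasts, 1 was higher and 2 lower, a smaller share than the 23.0% of all tested genes that were called. Col1a1 and Col3a1, the fibrillar collagens, did not pass (-0.01 ± 0.39 and 0.33 ± 0.31). Tnc, tenascin C, a matrix glycoprotein of follicle sheath and wounds, fell from 31.3, 16.8 and 20 to 0.731, 3.68 and 0.556 CPM (log2 fold change -3.78 ± 0.55 (SE), adjusted p = 0.00026), and Col12a1 from 31.1, 22.4 and 19.6 to 6.82, 6.51 and 7.5 CPM (log2 fold change -1.81 ± 0.35 (SE), adjusted p = 0.0025). Thbs2 was the higher gene (1.14 ± 0.32). Of 19 endothelial genes 0 passed. Of 14 tested genes of Schwann cells and nerve, 3 were higher, 1 lower and 10 did not pass. The myelin genes Mbp and Pmp22 rose (1.79 ± 0.36 and 1.38 ± 0.27), and Egr2, a transcription factor of myelinating cells, fell (46.6, 37 and 31.3 CPM in WT, 10.2, 19.8 and 16.4 in DE2, log2 fold change -1.31 ± 0.37 (SE), adjusted p = 0.021). Haemoglobin genes Hba-a1 and Hbb-bs rose (1.21 ± 0.34 and 1.30 ± 0.41).

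Cytosolic ribosomal protein genes were lower in 26 of 78 and higher in 0, with small differences (median -0.55). Rpl7a stood at 289, 320.4 and 249 CPM in WT and at 164, 151 and 147 CPM in DE2 (log2 fold change -0.89 ± 0.17 (SE), adjusted p = 0.0023), and Rplp0 did not pass (-0.04 ± 0.19). Their count depended on the libraries and the scaling: 14 or 8 were called without WT replicate 1 or 2, 50 without DE2 replicate 1, 3 without DE2 replicate 2, 5 without DE2 replicate 3 and 68 with total count scaling, and 0 with the muscle covariate. Among the most abundant called genes, the higher ones were Acta1, Aldoa, Atp2a1, Ttn and Tnnt3, which are muscle genes or, for Aldoa, a glycolytic enzyme that muscle makes in quantity. The lower ones were Actb, Eef1a1, Krt17, H3f3b and Gm26917. Actb, cytoplasmic actin often used as a reference, fell from 2230.4, 2413 and 2463 to 1537, 1219 and 1435 CPM (log2 fold change -0.76 ± 0.22 (SE), adjusted p = 0.023).

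Among called genes with a mean of at least 3 log2 CPM over the untreated libraries and no overlap, of the 15 largest fitted falls 7 are Krtap genes, 1 is Mlana, and 7 are Gm genes on chromosomes 1 and 10 whose roles are not known here. Genes at 0 or few counts in DE2 mostly lie under that level, and some fell further: Krtap24-1 had 1930 counts in WT and 0 in DE2 (at least 528-fold lower). Gm10318 had the smallest p of these (174, 168 and 312 CPM in WT, 1.22, 1.13 and 1.11 in DE2, log2 fold change -7.52 ± 0.42 (SE), adjusted p = 1.4e-07). The 15 largest rises by the same rule include the muscle genes Lmcd1 (2.98 ± 0.41), Hspb7 (2.84 ± 0.52) and Alpk3 (3.05 ± 0.51). Six4, a homeobox factor of muscle, rose from 3.7, 1.63 and 3.75 to 7.8, 60.3 and 42.5 CPM (log2 fold change 3.58 ± 0.77 (SE), adjusted p = 0.0042). The largest, F830016B08Rik, an interferon-inducible GTPase gene by its annotation family, stood at 4.57, 4.89 and 7.09 CPM in WT and 168, 36.8 and 37.2 in DE2, highest in replicate 1 (log2 fold change 3.86 ± 0.72 (SE), adjusted p = 0.0021).

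**Figure D4:**
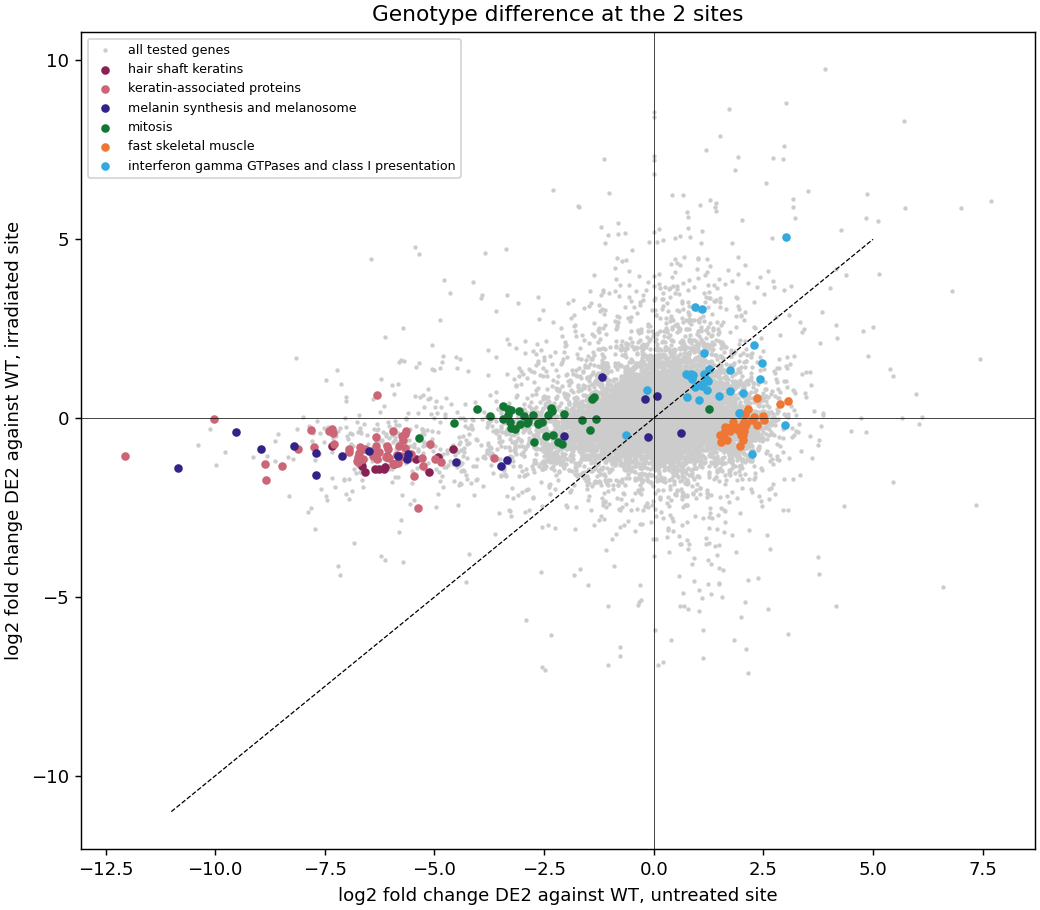
Log2 fold change of DE2 against WT at the untreated site (x axis) and at the irradiated site (y axis) for the members of 6 gene lists, with all tested genes in grey and the line of equal change drawn. The 2 contrasts share no library. Shaft, keratin-associated and most pigment and mitosis genes lie far left of 0 and closer to 0 on the y axis, fast muscle genes lie to the right of 0 and near 0 on the y axis, and most interferon genes lie above 0 on both axes.

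The genotype contrasts at the 2 sites share no library. They come from 1 fit with a shared estimate of each gene's spread, and libraries of the 2 sites may share animals. In both contrasts 141 genes passed, which is 4.06% of the untreated calls and 31.5% of the irradiated calls. Of these, 68 were higher at both sites, 44 lower at both, 24 lower at the untreated and higher at the irradiated site, and 5 the reverse. Over all tested genes, 23.0% were called at the untreated site (11.8% higher, 11.2% lower). At the irradiated site 2.96% were called (2.35% higher, 0.608% lower). Whether more genes passed at both sites than these shares give was not tested. Kit fell at both sites by nearly the same amount (-2.55 ± 0.45 untreated, -2.45 ± 0.45 irradiated), and so did Gli1 (-2.36 ± 0.48 and -2.13 ± 0.47). For neither did the difference between sites pass (adjusted p = 0.94 and 0.86). Il33 rose at both, and more so at the irradiated site (1.93 ± 0.36 and 4.03 ± 0.39, adjusted p of the difference 0.019). Ifit1 and Rsad2, interferon genes, rose at both (2.44 ± 0.59 and 2.07 ± 0.56 untreated, 2.24 ± 0.52 and 2.96 ± 0.53 irradiated), as did Ankrd2 (2.50 ± 0.55 irradiated). Dsg4, the desmoglein of the hair shaft, had 526 counts in untreated WT and 1 in untreated DE2, a ratio of 0.00232 (exact 95% interval 5.85e-05 to 0.0130), and fell less at the irradiated site (-2.19 ± 0.44, adjusted p of the difference 0.0014).

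Among genes of opposite direction, Tnc and Col12a1 fell at the untreated site and rose at the irradiated one (1.91 ± 0.44 and 2.43 ± 0.34 irradiated; adjusted p of the difference 0.00017 and 8.8e-05). Irradiated WT libraries held Tnc at 18.6, 22.4 and 22.5 CPM and irradiated DE2 libraries at 58.5, 125 and 55 CPM. Casp14, a protease of cornification, and Krt17 did the same (-1.10 ± 0.30 and -1.33 ± 0.23 untreated, 1.43 ± 0.29 and 1.03 ± 0.22 irradiated). Klk6, a kallikrein, joined them (-1.75 ± 0.37 and 1.80 ± 0.35). Uox, urate oxidase, had 124 counts in untreated WT and 0 in untreated DE2 (at least 33.9-fold lower), and was higher in DE2 at the irradiated site (1.69 ± 0.42). In the reverse pattern, Dmpk, a kinase abundant in muscle, and Hspb8, a small heat shock protein, rose at the untreated site and fell at the irradiated one (0.97 ± 0.26 and 0.62 ± 0.21 untreated, -1.20 ± 0.27 and -0.83 ± 0.21 irradiated). By list, the difference between sites passed for 14 of 14 shaft keratins, 54 of 56 Krtap, 15 of 20 sheath, 14 of 20 melanin, 27 of 36 mitosis, 17 of 34 fast muscle and 27 of 74 respiratory genes. It passed for 1 of 31 interferon gamma and 0 of 39 type I interferon genes.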

How the data were processed

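RNA-seq of mouse skin was analysed from 12 libraries, 3 in each of 4 groups, of which the 6 untreated ones carry the main comparison. The authors deposited raw read counts per Ensembl gene (53465 genes). Per the submitters' processing notes, the tools named are Trimmomatic 0.39, Picard 3.1.0, SAMtools 1.16 and HTSeq 2.0.2 with the build GRCm38; the sources used here do not name the aligner, annotation release, strand setting or handling of duplicates. Without a known strand setting, reads of a gene and an antisense partner cannot be told apart. Samples were grouped by their genotype and treatment labels, and replicates were numbered in accession order. Symbols and positions are from the GENCODE annotation of GRCm38, matched by gene ID.

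Counts were fitted with edgeR 4.0.16 (R 4.3.3): filterByExpr over the 4 groups, which left 15126 genes, TMM scaling, 1 mean per group over all 12 libraries (8 residual degrees of freedom) and the robust quasi-likelihood test, with Benjamini-Hochberg adjustment over all genes tested and a threshold of 0.05. Contrasts were DE2 against WT at the untreated site, the same at the irradiated site, and the difference of the 2. Fold changes are DE2 over WT, SEs are the fold change divided by the root of the test's F, and CPM use TMM library sizes. The biological coefficient of variation was 35.8%. In counts simulated from these libraries with 14403 genes in the fit, 70% of 100 genes changed 4-fold and 5% of 100 changed 2-fold were called. The simulation changed only those genes and gave every gene the same dispersion, whereas 23.0% of tested genes were called in the data. Its percentages are therefore not the sensitivity of the real comparison. Genes at 0 counts in a group are given as a bound from 3 counts over the group, and genes at 1 to 3 counts as a ratio with an exact 95% interval. Intervals and bounds cover counting error only.

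The members of 42 gene lists (1012 genes) and the tests were chosen with earlier results of these data known. Symbols of 2 list genes were not matched. A list is described by its counts and median, with no set test. Some genes are not reported here. Genes named are the 15 largest fitted changes in each direction among called genes at a mean of 3 or more log2 CPM and without overlap (which leaves out many genes at or near 0 counts in DE2), members of each list by smallest p, listed order or level, the 5 most abundant calls in each direction, genes called at both sites, Foxp3 with its neighbours, and sex-linked genes; other list members named for contrast were chosen after their values were seen. Promoter windows are from RefSeq (GRCm38.p6), with 11046 tested genes matched. Alternatives were other scalings, filters, tools (DESeq2 1.42.0, limma 3.58.1), library subsets and a muscle covariate. A fit without 2 libraries was chosen after seeing the data.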

Additional observations from a re-analysis of the deposited data

Results flagged for a closer look

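The genotype difference at the untreated site differed from that at the irradiated site for 1585 genes, 10.5% of those tested, by the test of the difference itself (edgeR, adjusted p under 0.05). It did so for 14 of 14 shaft keratins, 54 of 56 keratin-associated proteins, 15 of 20 genes of the inner root sheath list, 16 of 29 hair matrix regulators, 14 of 20 pigment genes and 27 of 36 mitosis genes, all of them with a more negative difference at the untreated site. It did so with a more positive difference at the untreated site for 17 of 34 fast muscle, 27 of 74 oxidative phosphorylation, 9 of 19 fatty acid oxidation and 6 of 19 clock genes. Of 28 cornified envelope genes 12 passed, 7 more negative and 5 more positive, and of 22 stress keratins and alarm genes 8 passed, all more negative.

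For 7 of the genes called in opposite directions, the untreated minus the irradiated log2 fold change was -5.69 for Tnc, -4.24 for Col12a1, -2.36 for Krt17, -2.52 for Casp14 and -3.55 for Klk6, and 2.17 for Dmpk and 1.45 for Hspb8. The 1585 became 1017, 878 or 1021 without WT untreated replicate 1, 2 or 3. It became 2585, 971 or 950 without DE2 untreated replicate 1, 2 or 3, 982 without WT UVB replicate 2, and 986 or 938 without DE2 UVB replicate 1 or 2.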

How the results depend on the processing

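The 3477 calls at the untreated site lay between 3321 and 4226 under other scalings, filters, tools, the untreated libraries alone and the fit without WT UVB replicate 2 and DE2 untreated replicate 1. Tested against a 2-fold change 777 genes were called (155 higher, 622 lower), and with the muscle share as covariate 572. Leaving out 1 untreated library gave 2108 to 3881. The higher share of calls was 51.3%, and 20.7% with total counts. The 1585 calls of the difference between sites ranged from 878 to 2585 when 1 library was left out. Of 145 called genes that the text names, 92 were called without any 1 untreated library and 53 were lost in at least 1 such fit. Under the muscle covariate the fold changes of Car3 and Gpd1 turned negative, to -0.1099 and -0.09391; the cause was not tested. In the 250 bases before the start alone, fewer bases were searched: the CHR element was in 13.3% of tested genes, 15.8% of genes called lower and 30% of mitosis genes, the M-box in 9.58% of tested genes, the E-box in 9.6% of tested and 9.28% of lower genes, the ISRE in 3.34% and the CTTTGA core in 13.2% of tested genes. The mean shares of shaft keratins, keratin-associated proteins, the sheath list and the interferon gamma list stayed within 1 SD under both other denominators. No paired analysis was possible because the labels do not name the animals.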
